A study of Mus musculus with 8 samples.

Results

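Cholesterol synthesis and its regulators were followed here as a fixed set of 26 genes, taken by symbol from the 31053 genes counted in each library. All 26 were present. The set holds 20 enzymes of the route from acetyl-CoA to cholesterol, with its isoprenoid branch. The other 6 genes are regulators of that pathway and Stard4, a sterol carrier. The cells came from the striatum and the prefrontal cortex (PFC) of Setd1a+/- and wild-type (WT) mice, sequenced singly to ask how loss of 1 copy of Setd1a, a histone H3K4 methyltransferase gene, alters transcription in each cell type. Each tissue had 4 libraries, 2 per genotype, 8 in all. By the methods, each biological replicate held 1 WT and 1 Setd1a+/- sample. The labels do not state which libraries belong together, and those of the same replicate number were taken as a pair. The labels name the striatal tissue NAc, whereas the methods describe dissection of dorsal and ventral striatum together.

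All animals were untreated male C57BL/6N mice, given as 8 to 10 weeks old in the labels, an age below the one in the methods, and the tissue of 2 mice was pooled in each library. Setd1a+/- mice carried a short frameshift deletion in exon 15 of Setd1a on 1 allele in all cells, made with CRISPR-Cas9 just before the exons of the SET domain, and WT mice carried none. The libraries held 15154268 to 26277553 unique molecular identifiers (UMIs) over all droplets and 1508 to 4361 annotated cells, with a median of 2302.5 to 3042 UMIs per cell. In total 8997 PFC cells and 14690 striatal cells carried the authors' cell type names. A gene's level is given in CPM, its UMIs per 1000000 UMIs of the same cells. Setd1a itself was at 8.45 and 11.2 CPM in the PFC libraries of WT mice, against 5.59 and 9.33 CPM in those of Setd1a+/- mice. Striatal WT libraries had 13.4 and 15.2 CPM, against 9.16 and 12.5 CPM. The log2 fold changes of Setd1a fitted in edgeR were −0.39 (SE 0.43) in the PFC and −0.38 (SE 0.28) in the striatum, and neither passed the test.

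Cholesterol hardly crosses the blood-brain barrier, so the brain makes its own. Acetyl-CoA units are built into mevalonate and isoprenoids, 2 farnesyl units are joined to squalene, and squalene is closed to lanosterol and trimmed to cholesterol in the endoplasmic reticulum. Transcription of these genes is driven by the SREBP proteins, encoded by Srebf1 and Srebf2. When sterols are plentiful, INSIG proteins hold SREBP and its escort SCAP in the endoplasmic reticulum. Oligodendrocytes need large amounts of cholesterol for myelin, and astrocytes are known as suppliers of cholesterol to adult neurons.

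Promoters of enzymes of this pathway are known to carry sequence elements through which they are switched together. These are a sterol regulatory element bound by SREBP and, close to it, a CCAAT box bound by NF-Y. The windows below show CCAAT, and in Hmgcs1 also the sterol element, for 4 enzymes that were lower in striatal than in PFC astrocytes. They are the enzymes of that group with a single annotated start and a window outside the annotated gene. Each is the 250 bases before the RefSeq transcription start in GRCm38.p6, read 5′ to 3′ on the gene's strand, at chr13:119690101-119690350 (plus strand) for Hmgcs1, chr8:122443423-122443672 (minus) for Mvd, chrX:72918271-72918520 (plus) for Nsdhl and chr9:42264301-42264550 (minus) for Sc5d. Capitals mark CCAAT on either strand, where the reverse reads ATTGG, and the sterol element TCACNCCAC on either strand, where N is any base.
Hmgcs1: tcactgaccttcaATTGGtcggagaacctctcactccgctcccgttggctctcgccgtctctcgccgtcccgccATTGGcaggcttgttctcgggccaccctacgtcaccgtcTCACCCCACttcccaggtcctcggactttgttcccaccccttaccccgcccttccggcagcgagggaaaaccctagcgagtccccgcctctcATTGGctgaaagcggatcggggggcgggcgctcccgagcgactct
Mvd: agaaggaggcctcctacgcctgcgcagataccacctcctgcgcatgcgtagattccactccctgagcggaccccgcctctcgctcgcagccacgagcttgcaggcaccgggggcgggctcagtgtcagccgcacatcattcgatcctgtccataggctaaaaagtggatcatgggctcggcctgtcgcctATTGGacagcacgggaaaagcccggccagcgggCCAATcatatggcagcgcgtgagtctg
Nsdhl: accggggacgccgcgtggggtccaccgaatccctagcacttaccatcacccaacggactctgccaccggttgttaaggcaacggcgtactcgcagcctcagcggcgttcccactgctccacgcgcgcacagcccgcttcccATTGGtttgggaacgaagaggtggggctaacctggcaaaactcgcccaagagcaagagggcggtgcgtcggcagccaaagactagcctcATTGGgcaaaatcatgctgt
Sc5d: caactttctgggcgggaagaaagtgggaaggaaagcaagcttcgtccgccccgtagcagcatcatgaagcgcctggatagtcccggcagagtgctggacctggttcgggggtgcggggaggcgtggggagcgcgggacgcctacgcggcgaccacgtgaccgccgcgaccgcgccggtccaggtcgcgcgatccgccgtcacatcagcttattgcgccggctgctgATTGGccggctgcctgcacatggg

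CCAAT was found in the windows of 20 of the 22 members with a window, and in those of 37.5% of all 27025 genes with one. Acat2 and Scap were the 2 without it. TCACNCCAC was found only in Hmgcs1, at bases 137 to 129 before the start, and in 1.22% of all genes. These are matches of letters in a fixed window and show no binding. A window without a match does not show that the promoter lacks such an element. For Sc5d, unlike Hmgcs1, Mvd and Nsdhl, the bases read after the RefSeq start were not found in the gene's GENCODE transcripts.

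In the PFC, the pathway was highest in astrocytes. The summed level of the 20 enzymes was 4486 and 3259 CPM in the astrocytes of the WT libraries and 4221 and 4640 CPM in those of the Setd1a+/- libraries, with a mean of 4152 ± 620 CPM (SD over the 4 libraries of both genotypes, as in all means of this kind). Mature oligodendrocytes followed at 2026 ± 158 CPM and newly formed oligodendrocytes at 1497 ± 187 CPM. Excitatory neurons stood at 1218 ± 83.0 CPM, interneurons at 1105 ± 148 CPM and oligodendrocyte progenitors at 1012 ± 172 CPM, and these 3 types overlapped. Endothelial cells at 710 ± 16.6 CPM and microglia at 553 ± 122 CPM were lowest. The lowest library of newly formed oligodendrocytes, at 1315 CPM, was just under the highest of excitatory neurons, at 1316 CPM. The astrocyte mean was close to the same, 4198 CPM, when each cell was thinned to 1000 UMIs. Newly formed oligodendrocytes were then at 1220 CPM, below excitatory neurons at 1248 CPM. CPM is a share of a cell's RNA, and per cell the order differed: excitatory neurons, with a median of 5732 to 9178 UMIs, held 8.98 enzyme UMIs per cell and astrocytes, with 1744 to 2129 UMIs, held 8.61.

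In the striatum no type stood clear of all others. The summed enzymes reached 1574 and 1804 CPM in the astrocytes of the WT libraries and 1389 and 881 CPM in those of the Setd1a+/- libraries, the last from 31 cells. Newly formed oligodendrocytes stood at 1383 ± 255 CPM, mature oligodendrocytes at 1369 ± 96.1 CPM, and the cluster NB, which the authors describe as neural stem cells and neuroblasts, at 1259 ± 67.6 CPM. Interneurons held 1020 ± 49.8 CPM and progenitors 879 ± 46.3 CPM. The medium spiny neurons (MSNs) that carry the D1 or the D2 dopamine receptor, the main neurons of this tissue, held 632 ± 13.2 and 627 ± 37.7 CPM, below interneurons in every library. Endothelial cells at 600 ± 19.1 CPM and microglia at 486 ± 42.2 CPM again had the lowest means, and endothelial cells overlapped with D2 MSNs.

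**Figure D1:**
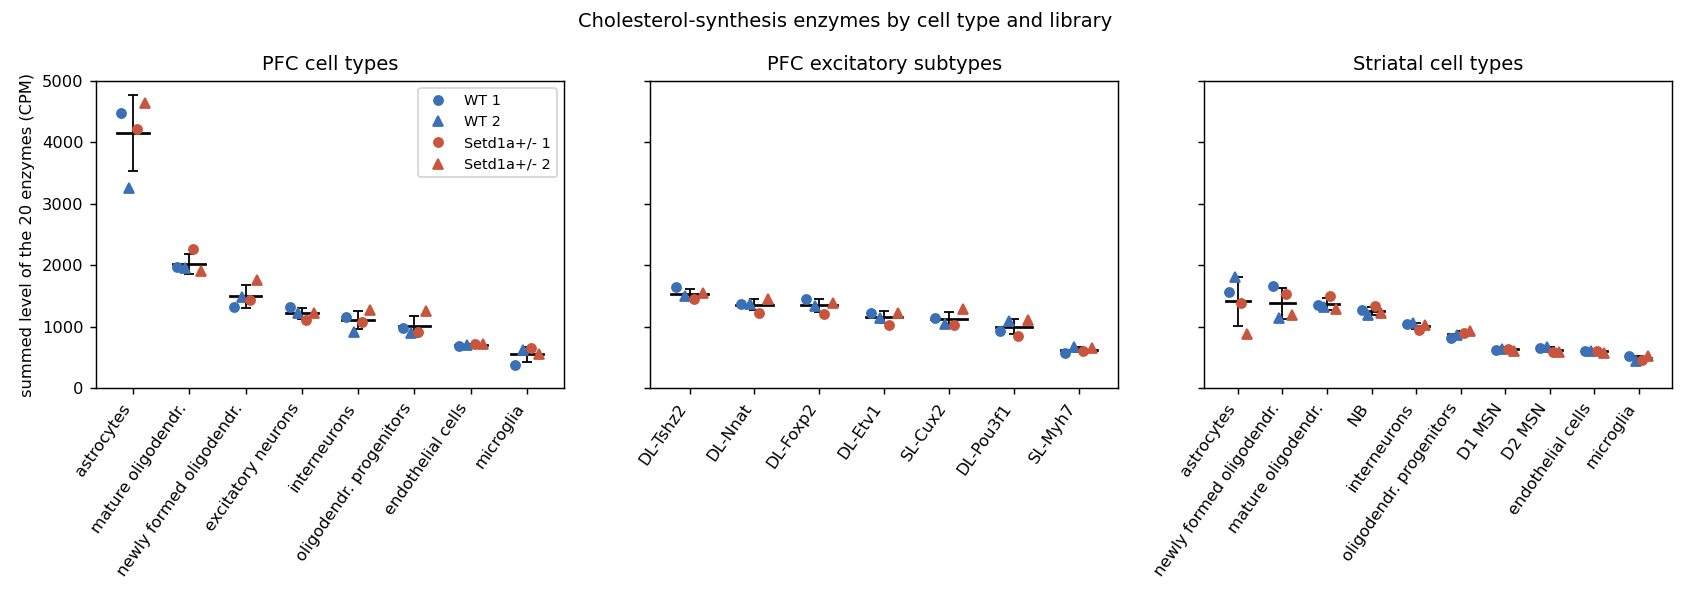
Summed CPM of the 20 enzymes in each cell type of the PFC, in each subtype of PFC excitatory neurons and in each cell type of the striatum. Each point is 1 library, blue for WT and red for Setd1a+/-, with a circle for replicate 1 and a triangle for replicate 2. The black line is the mean and the bar the SD of 4 libraries. PFC astrocytes, between 3259 and 4640 CPM, lie above all other groups.

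The names of the clusters were checked against 3 markers each. In the PFC every marker of astrocytes, oligodendrocytes, their progenitors, endothelial cells, microglia and both neuron classes was highest in its own type. In the striatum the cluster named interneurons had the highest Gad1 (588 CPM), but Gad2 and Slc32a1 were highest in D1 MSNs, and the excitatory markers Neurod6 (98.7 CPM) and Slc17a7 (189 CPM) were highest in this interneuron cluster. Its level of the pathway is given under its deposited name, and the part that excitatory cells have in it was not tested. Every level also includes free RNA. In droplets of at most 100 UMIs, Hmgcs1 was at 215 CPM and Insig1 at 114 CPM in the PFC, and at 78.0 and 58.6 CPM in the striatum. In PFC astrocytes 21 of the 26 members were above these droplets in all 4 libraries, in PFC excitatory neurons 10, in striatal astrocytes 12 and in D1 MSNs 3. The share of all genes above the droplets was not determined in these types.

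Among the enzymes that build mevalonate and isoprenoids, Hmgcs1, the HMG-CoA synthase at the head of the mevalonate route, was at 502 and 293 CPM in the astrocytes of the WT and at 572 and 575 CPM in those of the Setd1a+/- PFC libraries. Its mean in the other PFC types ran from 40.6 CPM in microglia to 331 CPM in mature oligodendrocytes, and astrocytes overlapped with the latter. Mvd, the mevalonate diphosphate decarboxylase, was at 159, 180, 103 and 214 CPM in PFC astrocytes (WT replicates 1 and 2, then Setd1a+/- replicates 1 and 2, an order kept below), against 57.6 CPM in newly formed oligodendrocytes, the next type. Idi1, the isopentenyl diphosphate isomerase, was at 357, 172, 291 and 236 CPM, against 103 CPM in mature oligodendrocytes. Neither Mvd nor Idi1 in astrocytes overlapped with the next type. The kinases Mvk and Pmvk reached their highest means in PFC astrocytes too, at 57.9 and 182 CPM, and overlapped with newly formed oligodendrocytes and interneurons respectively.

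Other isoprenoid genes had their peaks elsewhere. Acat2, a cytosolic thiolase that makes acetoacetyl-CoA, was highest in the striatal cluster NB at 217, 235, 209 and 334 CPM, above all other striatal types in every library. In the PFC it was highest in newly formed oligodendrocytes at a mean of 154 CPM. Reads of Acat2 may be shared with its near-identical neighbour Acat3. Ggps1, which leads isoprenoids away from sterols to the lipid anchors of proteins, was highest in PFC interneurons at 117, 121, 115 and 103 CPM, above all other PFC types in every library, and its means ran from 30.4 to 114 CPM over all types. Fdps, the farnesyl diphosphate synthase, ranged from 27.7 CPM in PFC microglia to 189 CPM in PFC astrocytes, with every neighbouring pair of PFC types overlapping, and its reads may be shared with pseudogenes.

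Squalene and lanosterol synthesis had its highest PFC means in astrocytes. Fdft1, the squalene synthase that commits farnesyl units to sterols, was at 401, 238, 470 and 325 CPM in PFC astrocytes against 129 CPM in excitatory neurons. Sqle, the squalene epoxidase, was at 268, 176, 273 and 239 CPM against 98.7 CPM in newly formed oligodendrocytes. Lss, the lanosterol synthase, was low in all types, at 35.9 CPM in PFC astrocytes and 3.26 to 24.3 CPM in the rest. Fdft1 and Sqle in PFC astrocytes did not overlap with the next PFC type, whereas Lss did.

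Of the enzymes that trim lanosterol, Msmo1 had the largest ratio of PFC astrocytes to the next PFC type, at 4.31. Msmo1, the sterol methyl oxidase, was at 1366, 964, 1384 and 1570 CPM in PFC astrocytes, and the next type, mature oligodendrocytes, was at 307 ± 17.7 CPM. It is annotated as protein coding at chr8:64718139-64733792 (GRCm38). Nsdhl, the dehydrogenase that acts after it, was at 106, 99.0, 85.4 and 51.5 CPM in PFC astrocytes, above all other PFC types. Cyp51, the lanosterol demethylase, was at 249, 154, 162 and 222 CPM in PFC astrocytes and overlapped with mature oligodendrocytes at 161 CPM. Hsd17b7, a keto-reductase of the same step as Nsdhl, was at 54.3 CPM in PFC astrocytes and 31.6 CPM in striatal newly formed oligodendrocytes, where it was above all other striatal types in every library. That type held only 22 to 58 striatal cells per library, and Hsd17b7 was too low in it to be tested between tissues.

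The late enzymes differed in where they were highest. Sc5d, the sterol desaturase, was at 236, 198, 205 and 220 CPM in PFC astrocytes and 192, 148, 236 and 159 CPM in PFC mature oligodendrocytes, which overlapped. In the striatum it was highest in mature oligodendrocytes at 126 ± 5.72 CPM, above striatal astrocytes at 79.5 ± 17.2 CPM in every library. Ebp, the sterol isomerase, was highest in mature oligodendrocytes of both tissues, at 104 ± 18.3 CPM in the PFC and 110 ± 8.81 CPM in the striatum, and PFC microglia overlapped at 81.1 to 122 CPM. In astrocytes Ebp was at 30.8 CPM in the PFC and at 14.4 CPM in the striatum, its lowest striatal mean. Dhcr7, which makes cholesterol from its last precursor, reached 83.2 CPM in PFC astrocytes and 58.5 CPM in striatal newly formed oligodendrocytes.

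The 2 reductases of one sterol step had their highest levels in different cells. Lbr, a sterol reductase that is also the lamin B receptor of the nuclear envelope, was highest in endothelial cells of the PFC at 112, 117, 102 and 128 CPM, and its lowest PFC mean was in astrocytes, at 7.24 to 8.54 CPM, below the low-UMI droplets in all libraries. Tm7sf2, the other sterol reductase, was highest in PFC astrocytes at 25.2 CPM and at 1.27 CPM in PFC endothelial cells. Both rest on few UMIs in astrocytes, 9 and 27 in all.

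**Figure D2:**
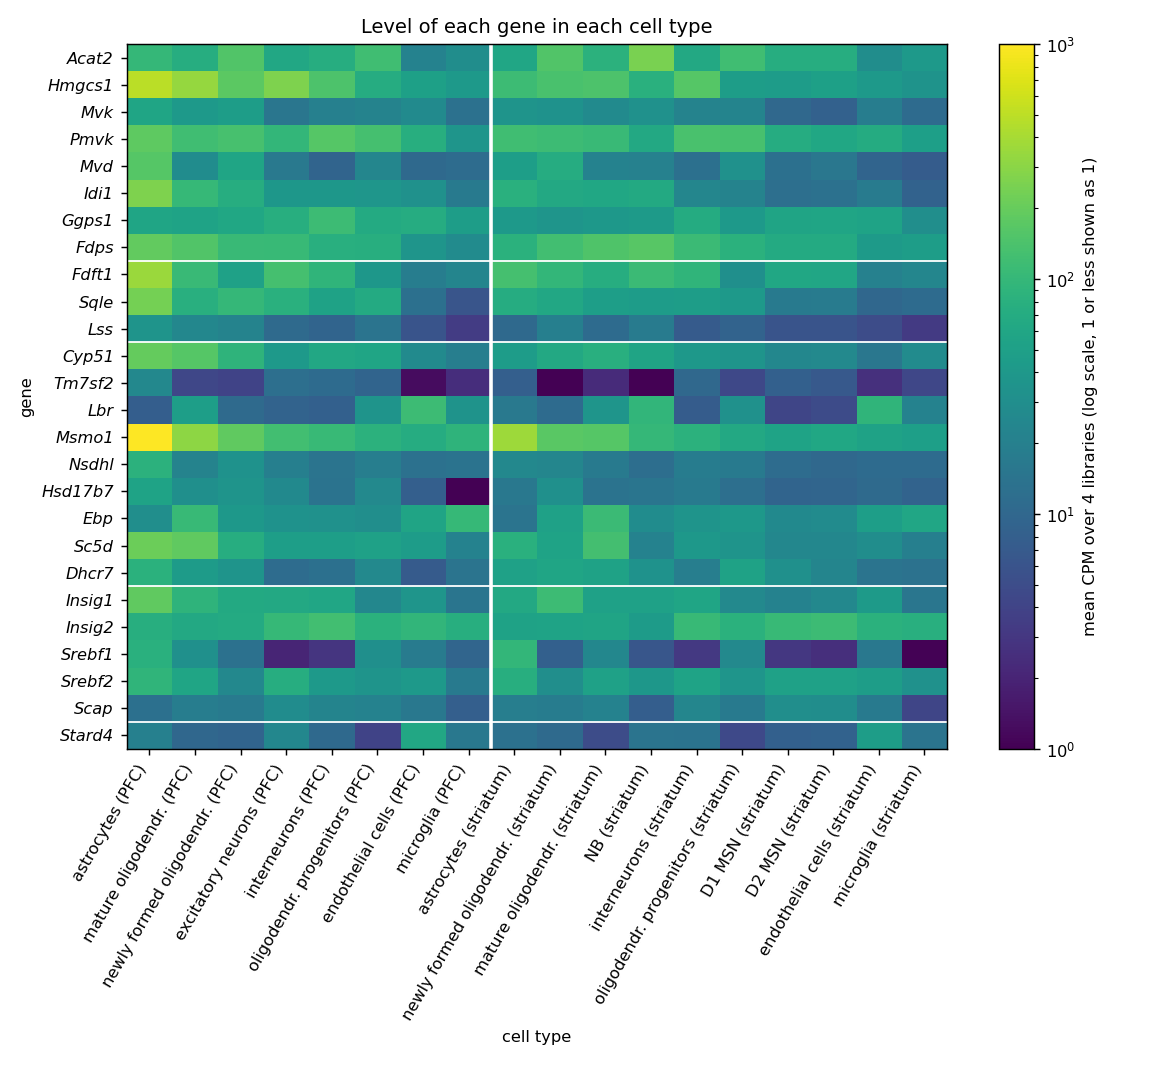
Mean CPM over 4 libraries of each of the 26 members, in rows by role, in each cell type of the PFC and the striatum, in columns, on a logarithmic colour scale from 1 to 1000 CPM. Bright colours are high levels. The PFC astrocyte column is the brightest for most enzymes, with Msmo1 at 1321 CPM, above the top of the scale. Lbr is brightest in endothelial cells and in NB.

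Compared with PFC excitatory neurons or with striatal D1 MSNs, astrocytes were higher in many members, and no member was 2-fold lower in every library of either pair. A member was counted when its CPM differed at least 2-fold, in the same direction, in each of the 4 libraries. These clusters were built from the same cells and genes, so the folds are a description with no test. In the PFC, 13 of 26 members were higher in astrocytes than in excitatory neurons, against 10.4% of all genes compared. None was lower, against 18.1% of all genes. The median log2 ratio of all 26 members was 1.31, and that of all genes was −0.39. Ranked by the smallest of their 4 folds, Srebf1 came first, at 24.3 to 50.6 over the libraries, from 111, 88.0, 76.9 and 43.4 CPM in astrocytes and at most 2.51 CPM in excitatory neurons. Next came Mvd at 9.76 to 10.3-fold, Msmo1 at 7.53 to 13.2-fold, Idi1 at 4.87 to 8.33-fold and Dhcr7 at 4.76 to 9.22-fold. The other 8 were Sc5d, Cyp51, Mvk, Lss, Sqle, Insig1, Nsdhl and Fdft1, with smallest folds from 2.06 for Fdft1 to 4.12 for Sc5d.

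In the striatum, 7 members were higher in astrocytes than in D1 MSNs, against 12.5% of all genes, and none was lower, against 9.12%. The median log2 ratio of all 26 members was 1.00, and that of all genes −0.18. By the smallest of the 4 folds, Srebf1 was again first, at 21.4 to 59.6-fold, followed by Sc5d at 2.94 to 4.04-fold, Sqle at 2.80 to 5.99-fold, Idi1 at 2.77 to 9.85-fold and Msmo1 at 2.66 to 8.68-fold. Mvd and Mvk were the other 2. All 7 were also among the 13 of the PFC.

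Related lipid genes were read beside the members. Of 12 fatty acid synthesis genes, 7 were higher in astrocytes than in PFC excitatory neurons and 7 than in D1 MSNs, with none lower, and their median log2 ratio was 1.87 in the PFC and 2.77 in the striatum. Of 11 genes of sterol transport and turnover, Abca1, Soat1 and Npc2 were higher in astrocytes of both tissues. Abcg1, a sterol exporter, and Cyp46a1, which hydroxylates cholesterol for its removal from neurons, were lower in PFC astrocytes than in PFC excitatory neurons.

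Pairs of neuron classes within a tissue were compared in the same way. D1 against D2 MSNs gave 0 members in either direction, against 0.909% of all genes higher and 0.266% lower, and PFC interneurons against excitatory neurons also gave 0, against 3.43% and 4.54%. The striatal interneuron cluster was higher than D1 MSNs in Hmgcs1 at 3.14 to 3.74-fold, Insig1 at 2.27 to 5.18-fold and Sqle at 2.20 to 3.04-fold, against 5.99% of all genes, and none was lower, against 3.11%. The median log2 ratio of the 26 members was 0.68 in this pair and that of all genes 0.05. Hmgcs1 was at 163, 151, 150 and 180 CPM in that cluster and at 43.5 to 49.6 CPM in D1 MSNs, which did not overlap. With cells thinned to 1000 UMIs, 1 of the 3 was past 2-fold in every library.

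Along the oligodendrocyte lineage few members passed 2-fold in every library, though the median log2 ratio of the members compared, newly formed oligodendrocytes over progenitors, was 0.57 in the PFC and 0.65 in the striatum, against −0.10 and −0.083 over all genes. In the PFC pair Msmo1, at 1.99 to 2.82-fold, and Hmgcs1, at 1.82 to 2.74-fold, lay just under the threshold. PFC newly formed oligodendrocytes were higher than progenitors in 0 members, against 3.75% of all genes, and lower in Lbr alone, at 2.10 to 3.32-fold, against 7.21%. PFC mature oligodendrocytes were higher than newly formed ones in Lbr, at 2.39 to 6.19-fold, against 5.99%, and lower in 0, against 9.94%. These folds rest on 9 UMIs of Lbr in newly formed oligodendrocytes, and the number of members past 2-fold moved to 4 without WT replicate 1 in the first pair, and to 2 without WT replicate 2 or 3 without Setd1a+/- replicate 2 in the second. In the striatum, Insig1 was higher in newly formed oligodendrocytes than in progenitors, at 2.19 to 7.11-fold, against 2.92%, and without either Setd1a+/- library 3 members were. None was lower, against 4.18%. Mature against newly formed oligodendrocytes gave 0 there, against 3.93% higher and 8.28% lower. The cluster NB was higher than striatal astrocytes in Acat2, at 3.48 to 4.90-fold, and Lbr, at 2.96 to 15.2-fold, against 9.99% of all genes. It was lower in Srebf1, at 4.46 to 41.3-fold, and Sc5d, at 2.42 to 7.15-fold, against 13.8%.

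A second count asked in which type each gene was the highest of all types in every library. PFC astrocytes were highest for 8 members, Mvd, Idi1, Fdft1, Sqle, Msmo1, Nsdhl, Insig1 and Srebf1, against 3.74% of all genes. PFC endothelial cells were highest for Lbr and Stard4, against 10.0%, and PFC interneurons for Ggps1, against 4.61%. In the striatum, astrocytes were highest for Srebf1 and Srebf2 only, against 4.26%, mature oligodendrocytes for Ebp and Sc5d, against 3.13%, NB for Acat2, against 5.76%, and newly formed oligodendrocytes for Hsd17b7, against 1.74%. The result for Hsd17b7 rests on low counts from 22 to 58 cells per library.

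The regulators did not share one pattern. Srebf1, whose SREBP-1 protein drives fatty acid genes and, in one form, sterol genes, was highest in astrocytes. It was at 79.8 CPM in PFC and 97.8 CPM in striatal astrocytes, then at 24.3 to 32.3 CPM in progenitors and mature oligodendrocytes, at 17.8 and 15.9 CPM in endothelial cells of the PFC and the striatum, and at 2.02 to 3.11 CPM in the 5 neuron types. The lowest mean was in striatal microglia, at 1.05 CPM. The neuron levels were below the droplets of low UMI number, at 7.91 CPM in the PFC and 8.26 CPM in the striatum. Srebf2, whose SREBP-2 protein is the main activator of the sterol genes, ranged from 17.2 CPM in PFC microglia to 90.8 CPM in PFC astrocytes, and PFC excitatory neurons, at 74.9 CPM, overlapped with astrocytes. In droplets of low UMI number it was at 30.9 to 61.4 CPM in the PFC and 58.5 to 71.9 CPM in the striatum, where the mean of each type but astrocytes (75.8 CPM) lay below these droplets. Scap, the escort of SREBP, had its highest means in neurons, at 29.0 CPM in PFC excitatory neurons and 30.3 CPM in D1 MSNs, and at 12.6 CPM in PFC astrocytes, but droplets of low UMI number held a mean of 28.9 CPM in the PFC and 53.2 CPM in the striatum, above every striatal type.

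The 2 Insig genes ran differently. Insig1, itself a target of SREBP, ranged from 14.6 CPM in PFC microglia to 128, 209, 188 and 212 CPM in PFC astrocytes, which did not overlap with any other PFC type. In the striatum its highest mean was 115 CPM, in newly formed oligodendrocytes, where 1 library was at 229 CPM and the others at 62.5 to 95.2 CPM. Insig2 was flatter, from 43.7 CPM in NB to 124 CPM in PFC interneurons, with neurons at 101 to 124 CPM and astrocytes at 76.2 CPM in the PFC and 53.4 CPM in the striatum. All types that were neighbours in its order of means overlapped within each tissue. Stard4, a carrier of sterols between membranes, was highest in endothelial cells, at 62.9 ± 13.8 CPM in the PFC and 46.6 ± 6.78 CPM in the striatum, and at 4.05 to 24.7 CPM in the other types.

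Excitatory neurons of the PFC fell into 7 deposited subtypes, named by layer (deep, DL, or superficial, SL) and by a marker gene. DL-Tshz2 neurons had the highest summed enzymes, at 1539 ± 79.0 CPM, and DL-Nnat and DL-Foxp2 followed at 1360 ± 94.3 and 1348 ± 103 CPM. DL-Etv1 at 1161 ± 92.8 CPM, SL-Cux2 at 1126 ± 118 CPM and DL-Pou3f1 at 1002 ± 126 CPM overlapped, the last from 7 to 35 cells per library. SL-Myh7 neurons were the lowest in every library, at 574, 674, 613 and 657 CPM from 23 to 63 cells.

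SL-Myh7 neurons were at least 2-fold lower than all other excitatory neurons in 5 members in every library, against 1.58% of all genes, and higher in 0, against 1.46%. The median log2 ratio of all 26 members was −0.71, and that of all genes was 0.07. Insig1 was 3.31 to 6.94-fold lower, at 15.5, 9.36, 12.3 and 9.66 CPM. Stard4 was 2.61 to 9.87-fold lower, Msmo1 2.28 to 3.91-fold, Hmgcs1 2.10 to 3.21-fold and Acat2 2.00 to 4.95-fold. Hmgcs1 was at 93.2, 125, 77.1 and 94.7 CPM in SL-Myh7 and at 233 to 296 CPM over all excitatory neurons, which did not overlap. Srebf1 had 0 UMIs in SL-Myh7 in all 4 libraries, Srebf2 was at 43.6 CPM, and Insig2, at 119 CPM, was not lower. Of the 5, Insig1 rests on 15 UMIs and Stard4 on 8 in SL-Myh7, and with cells thinned to 1000 UMIs 2 members stayed past 2-fold in every library. In the subtypes DL-Etv1, DL-Foxp2, DL-Nnat, DL-Tshz2 and SL-Cux2, 0 members passed in either direction. Of all genes 0.316%, 1.66%, 0.341%, 2.45% and 1.05% were higher in these subtypes, in this order, and 0.938%, 4.31%, 0.657%, 4.15% and 1.57% were lower. In DL-Pou3f1 Srebf1 was counted as higher, against 2.11% of all genes, and 0 members as lower, against 0.35%, but Srebf1 rested on few UMIs, and the count was 0 without WT replicate 1 or either Setd1a+/- library.

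The same cell types were next compared between tissues, with counts summed per library and tested in edgeR over 4 PFC and 4 striatal libraries. A gene was called at a Benjamini-Hochberg adjusted p (FDR) under 0.05 and a fold over 1.5. Over the 7 shared types, 2837 of 42759 gene-by-type results were called (6.63%), and 18 of them were members. Of these 18, 13 were in astrocytes, 4 in mature oligodendrocytes and 1 in interneurons, and all 18 were lower in the striatum. By the methods, papain digestion was longer for the striatum than for the PFC. Tissue, dissection and digestion time were the same split of the libraries, so they cannot be told apart.

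In astrocytes, 20 members had enough counts to be tested. The 13 called lower in the striatum were 12 of the 16 enzymes tested and Insig1, against 3.95% of all astrocyte genes called in that direction. None was called higher, against 6.46%. The median log2 fold change, striatum minus PFC, was −1.46 over the members tested and −0.016 over all genes. The 4 PFC libraries lay above the 4 striatal ones in 14 of the members, against 6.44% of all genes. Lss, Tm7sf2, Lbr, Ebp, Scap and Stard4 were too low to be tested. The filter on low counts could keep a gene through the libraries of 1 tissue alone. Hsd17b7, the called member lowest in the striatum, was also called without this filter.

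Cyp51 had the largest difference. It was at 249, 154, 162 and 222 CPM in PFC and at 41.2, 57.1, 30.4 and 53.1 CPM in striatal astrocytes, a log2 fold change of −2.31 (SE 0.27, FDR = 3.34e-05). Hmgcs1, at 112, 163, 112 and 74.3 CPM in the striatum, changed by −2.03 (SE 0.26, FDR = 6.65e-05). The groups of both enzymes were well apart, since the highest striatal library stayed below the lowest PFC library.

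Msmo1 was at 424, 483, 382 and 149 CPM in striatal astrocytes, a log2 fold change of −1.89 (SE 0.28, FDR = 0.000259), and the lowest value came from Setd1a+/- replicate 2. Sqle, at 67.0, 93.7, 81.1 and 42.5 CPM there, changed by −1.68 (SE 0.23, FDR = 0.000138). Sc5d, at 73.8, 104, 76.6 and 63.7 CPM, changed by −1.46 (SE 0.21, FDR = 0.000229). Every striatal library of these enzymes was below every PFC library.

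Idi1, Mvd and Fdft1, on the way to squalene, fell with them. Idi1 was at 92.7, 114, 80.0 and 31.9 CPM in the striatum, a log2 fold change of −1.65 (SE 0.26, FDR = 0.000454), and Mvd was at 61.8, 69.3, 41.7 and 21.2 CPM, a change of −1.77 (SE 0.29, FDR = 0.000622). Fdft1 was at 153, 185, 99.1 and 84.9 CPM, a change of −1.45 (SE 0.25, FDR = 0.00108). Insig1, at 68.7, 79.5, 38.3 and 74.3 CPM, was the only regulator called, at −1.64 (SE 0.28, FDR = 0.00107). Hsd17b7, at 72.4, 47.7, 42.7 and 54.2 CPM in the PFC and 22.3, 18.3, 12.4 and 10.6 CPM in the striatum, changed by −1.81, and Nsdhl by −1.53, the latter with 0 UMIs in striatal Setd1a+/- replicate 2.

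These 11 genes kept their call when any 1 of the 8 libraries was left out. The last 2 were less firm. Fdps, at −1.11 (SE 0.30, FDR = 0.0271), lost its call without striatal Setd1a+/- replicate 1 (log2 fold change −1.16), striatal WT replicate 2 (−1.13) or PFC Setd1a+/- replicate 2 (−0.75). Acat2, at −0.88 (SE 0.27, FDR = 0.0474), lost it without 5 of the libraries, at −0.71 to −0.97, namely striatal WT replicates 1 and 2, striatal Setd1a+/- replicate 1, PFC WT replicate 1 and PFC Setd1a+/- replicate 2. It was not called with DESeq2 (−0.86), with library size in place of TMM factors (−0.78) or without the filter on low counts (−0.84).

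The SREBP genes were not called. Srebf1 was at 111, 88.0, 76.9 and 43.4 CPM in PFC and at 82.4, 120, 104 and 84.9 CPM in striatal astrocytes, a log2 fold change of 0.29 (SE 0.27, FDR = 0.551). Srebf2 was at 90.8 ± 25.7 and 75.8 ± 9.57 CPM, a change of −0.26 (SE 0.23, FDR = 0.534). Both overlapped between tissues. Mvk at −0.92 (FDR = 0.0585) and Pmvk at −0.60 (FDR = 0.0639) just missed the threshold, and Insig2, Dhcr7 and Ggps1 had FDRs from 0.242 to 0.280.

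**Figure D3:**
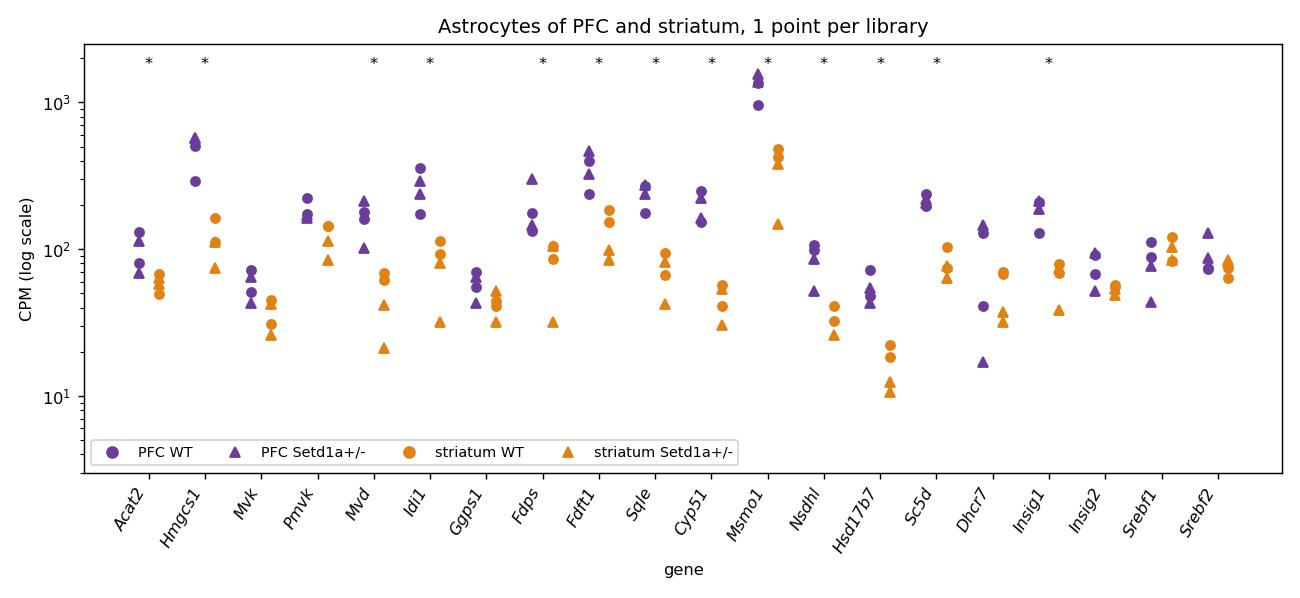
CPM of the 20 tested members in astrocytes of each library on a logarithmic axis, purple for PFC and orange for striatum, with circles for WT and triangles for Setd1a+/-. Stars mark the 13 called members, whose PFC and striatal points do not overlap, as for Cyp51 at 154 to 249 against 30.4 to 57.1 CPM. The striatal library of Nsdhl at 0 cannot be drawn on this axis.

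The tissue difference in astrocytes was seen in both genotypes. PFC over striatal means were 4.10-fold for Cyp51 in WT and 4.61-fold in Setd1a+/-, and 2.90 and 6.17-fold for Hmgcs1. For Msmo1 they were 2.57 and 5.57-fold. In the edgeR test of the difference between genotypes, 0 of 141 member results were called, and 0 with DESeq2. At an unadjusted p under 0.05 there were 3, against 2.21% of all 49915 results, of which 0 were called. The smallest unadjusted p of a member in astrocytes was 0.0313, for Fdft1, at 1.89-fold in WT and 4.32-fold in Setd1a+/- libraries.

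Other genes that differed in the same cells are given beside this result. Of the 3 astrocyte markers, Slc1a3 (−0.92, FDR = 0.017) and Gja1 (−0.71, FDR = 0.0337) were called lower in striatal astrocytes and Aqp4 (−0.41, FDR = 0.249) was not. RNA of MSNs was present in striatal astrocytes: the 3 D2 MSN markers summed to 118 to 542 CPM there and to 0 to 8.14 CPM in PFC astrocytes, and the 3 D1 MSN markers to 51.8 to 371 and 0 to 3.67 CPM. Drd1, Isl1 and Drd2 were at 0 in all PFC astrocytes. Free RNA differed the same way: in droplets of low UMI number 10 of the 13 called members were higher in every PFC than in every striatal library, as Hmgcs1 at 184 to 249 against 70.5 to 91.1 CPM and Sqle at 43.6 to 58.3 against 18.7 to 26.1 CPM. All 13 were above these droplets in the astrocytes of each PFC library and 8 in those of each striatal library. The share of all genes was not determined for these droplet counts. The part of astrocyte markers, MSN RNA and free RNA in the result was not tested. The 12 fatty acid genes were all tested, and Thrsp (−1.50, FDR = 0.000339), Acss2 (−1.43, FDR = 0.0173) and Scd1 (−1.22, FDR = 0.0219) were called lower. Of 5 sterol turnover genes tested, 0 were called.

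In mature oligodendrocytes, 4 of 24 members tested were called lower in the striatum, against 1.36% of all genes, and 0 higher, against 1.34%. The median log2 fold change of the 24 was −0.37, against −0.009 over all genes. Every PFC library lay above every striatal one in 9 members, against 6.75% of all genes. Msmo1 was at 281, 312, 320 and 314 CPM in the PFC and at 134, 173, 184 and 151 CPM in the striatum, a change of −0.86 (SE 0.16, FDR = 0.0135). Hmgcs1 was at 365, 299, 424 and 236 CPM and at 138, 119, 197 and 126 CPM, a change of −1.11 (SE 0.21, FDR = 0.0183). Insig1 changed by −0.75 (SE 0.17, FDR = 0.0411) and Idi1 by −0.67 (SE 0.16, FDR = 0.0494), and in all 4 genes the tissues did not overlap. In droplets of low UMI number the same genes were also higher in the PFC, Hmgcs1 at 184 to 249 against 70.5 to 91.1 CPM and Insig1 at 84.9 to 141 against 54.6 to 65.7 CPM. Insig1 in mature oligodendrocytes was above these droplets in 1 of 8 libraries, Hmgcs1 in 7, and Msmo1 and Idi1 in all, and the part of free RNA in the result was not tested.

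The calls in oligodendrocytes depended on single libraries, while the log2 fold changes with 1 library left out stayed at −0.80 to −0.94 for Msmo1, −0.99 to −1.32 for Hmgcs1, −0.64 to −0.83 for Insig1 and −0.59 to −0.78 for Idi1. With the replicate number as a block 7 members were called. Without 1 library the count was 0 for striatal WT replicate 1 or 2, 1 for PFC WT replicate 1, 2 for Setd1a+/- replicate 1 of either tissue and 7 for PFC Setd1a+/- replicate 2. The number of all genes called moved as well. Over all shared types it was 1638 to 3989 with 1 library left out, against 2837 with all libraries. In interneurons, Ggps1 was called lower in the striatum, at 117, 121, 115 and 103 against 75.7, 82.3, 73.9 and 51.9 CPM (−0.67, SE 0.18, FDR = 0.0203), 1 of 20 members tested against 5.90% of all genes. It lost its call without striatal Setd1a+/- replicate 2 (−0.55) or striatal WT replicate 1 (−0.66). The 3 excitatory markers summed to 241 to 388 CPM in the striatal and to 0 to 31.9 CPM in the PFC interneurons, Ggps1 was at 76.7 CPM in PFC excitatory neurons, and the part of these in the result was not tested. In endothelial cells 0 of 24, in progenitors 0 of 23, in newly formed oligodendrocytes 0 of 14 and in microglia 0 of 3 members were called in edgeR, where 1.17%, 0.0394%, 0.0332% and 8.95% of all genes were called lower and 4.88%, 0.118%, 0.0332% and 12.5% higher. At an unadjusted p under 0.05 these 4 types had 4, 7, 1 and 1 members, against 20.8%, 13.8%, 9.29% and 35.3% of all genes, and DESeq2 called 0 members in each. Dhcr7 in endothelial cells went the other way, at 4.51 to 12.1 CPM in the PFC and 9.11 to 17.8 CPM in the striatum (1.22, SE 0.35, FDR = 0.0612). It was called higher in the striatum with the replicate number as a block (FDR = 0.0457), without the low-count filter and without PFC Setd1a+/- replicate 2. Its lowest library held 5 UMIs. In droplets of low UMI number Dhcr7 was at 3.83 to 17.3 CPM in the PFC and 14.6 to 24.7 CPM in the striatum. Endothelial cells were below these droplets in every striatal library, and the part of free RNA in this difference was not tested.

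Between genotypes no member was called. The test was made for each cell type, for 6 of the excitatory subtypes and for all annotated cells, with a fold over 1.5 in the PFC and over 2 in the striatum. In edgeR, 0 of 157 member results in PFC cell types, 0 of 121 in subtypes, 0 of 192 in striatal cell types and 0 of 52 over all cells were called. The background was as low: 0.00%, 0.00%, 0.00544% and 0.00% of all genes were called, the 4 genes in the striatum all in D2 MSNs. DESeq2 also called 0 members. At an unadjusted p under 0.05 there were 3 members in PFC types, 2 in subtypes, 5 in striatal types and 0 over all cells, against 1.70%, 1.60%, 2.62% and 0.329% of all genes. The smallest FDR of any member was 0.919.

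The 5 PFC results with the smallest unadjusted p lay in 5 groups of cells. Idi1 in DL-Foxp2 neurons was at 59.3 and 43.0 CPM in the WT libraries, against 29.4 and 25.7 CPM in the Setd1a+/- ones, a log2 fold change of −0.85 (SE 0.30, unadjusted p = 0.0259 in edgeR). Insig1 in newly formed oligodendrocytes was at 29.8 and 56.1 against 101 and 80.7 CPM (1.18, SE 0.48, unadjusted p = 0.0323). Sqle in progenitors was at 55.5 and 48.2 against 82.9 and 85.7 CPM (0.70, SE 0.28, unadjusted p = 0.0356). The remaining 2 were SREBP genes with lower values in Setd1a+/- libraries. Srebf2 in DL-Nnat neurons was at 87.1 and 113 against 58.8 and 72.1 CPM (−0.65, SE 0.28, unadjusted p = 0.048) and Srebf1 in astrocytes at 111 and 88.0 against 76.9 and 43.4 CPM (−0.88, SE 0.41, unadjusted p = 0.0493). None of these passed adjustment.

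In the striatum the smallest was Hmgcs1 in progenitors, at 27.9 and 32.1 CPM in the WT libraries, against 52.7 and 74.0 CPM in the Setd1a+/- ones (0.96, SE 0.32, unadjusted p = 0.0102 in edgeR). Mvd in mature oligodendrocytes was at 19.7 and 11.0 against 28.7 and 25.2 CPM (0.86, SE 0.36, unadjusted p = 0.0296), and Fdft1 in interneurons at 105 and 110 against 65.3 and 83.0 CPM (−0.48, SE 0.21, unadjusted p = 0.0399). The other 2 were in astrocytes. Fdft1 was at 153 and 185 against 99.1 and 84.9 CPM (−0.88, SE 0.32, unadjusted p = 0.0227) and Dhcr7 at 70.4 and 67.3 against 37.2 and 31.9 CPM (−0.96, SE 0.35, unadjusted p = 0.024).

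Striatal astrocytes had the median farthest from 0. Of 20 members tested there 18 had a log2 fold change below 0, with a median of −0.45 against −0.034 over all genes, and 10 did not overlap between genotypes, against 40.7% of all genes. In this type 4.41% of all genes had an unadjusted p under 0.05 and 0 were called. Striatal astrocytes numbered 31 to 354 cells per library, with the fewest in Setd1a+/- replicate 2. In PFC astrocytes, by contrast, 10 members were above and 11 below 0, with a median of −0.033, and PFC excitatory neurons had 21 of 26 below 0 with a median of −0.11.

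**Figure D4:**
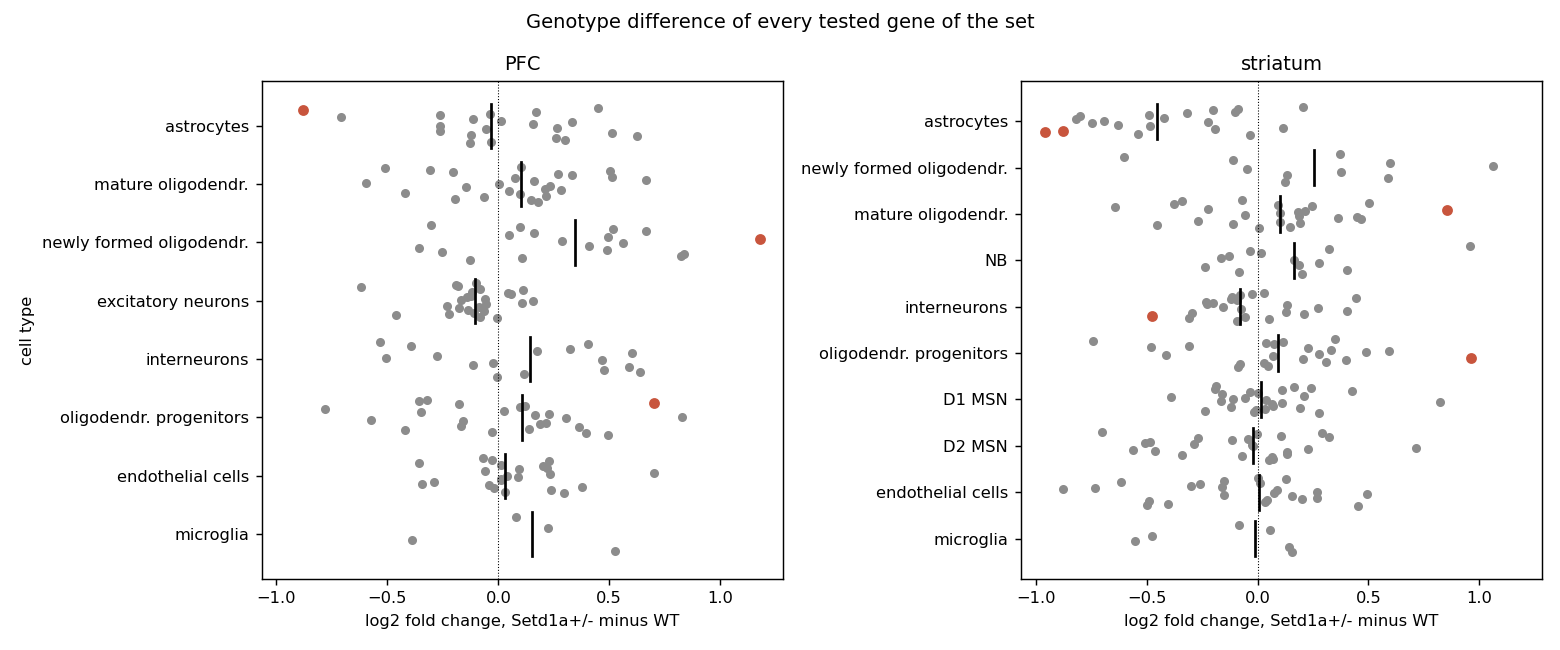
Log2 fold change, Setd1a+/- minus WT, of each member tested in each cell type of the PFC and the striatum. Excitatory subtypes are not shown. Every point is 1 member, red where the unadjusted p was under 0.05, and the black bar is the median of the members. Medians lie between −0.45 in striatal astrocytes and 0.35 in PFC newly formed oligodendrocytes, and no member was called.

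Insig1 was high in several types of striatal Setd1a+/- replicate 2. In D1 MSNs it was at 11.8 and 19.9 CPM in WT, 12.5 CPM in Setd1a+/- replicate 1 and 40.8 CPM in replicate 2. D2 MSNs of that library held 43.7 CPM, above all 3 others, of which the lowest was at 16.4 CPM, and its endothelial cells held 74.7 CPM against 23.6 to 45.4 CPM in the others. When striatal Setd1a+/- replicate 1 was left out, so that replicate 2 stood alone for its genotype, Insig1 was called higher in D1 MSNs (1.40, FDR = 0.0118) and endothelial cells (1.16, FDR = 0.0283), and Srebf1 was called lower over all striatal cells (−1.27, FDR = 0.0156), in edgeR. No other member was called in the PFC or the striatum with any library left out.

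Some members differed between replicates. Dhcr7 was at least 2-fold higher in replicate 2 than in replicate 1, in both genotypes, in PFC astrocytes (41.0, 128, 17.1 and 146 CPM), mature oligodendrocytes (27.2, 71.4, 8.92 and 71.4 CPM) and progenitors (8.99, 40.4, 9.87 and 42.9 CPM), against 1.78%, 2.52% and 2.20% of all genes. Fdps did so in PFC mature oligodendrocytes, at 94.5, 212, 93.1 and 217 CPM. In the striatum, Hmgcs1 (210, 95.2, 197 and 45.9 CPM) and Cyp51 (102, 10.6, 126 and 22.9 CPM) were at least 2-fold lower in replicate 2 in newly formed oligodendrocytes, against 0.798% of all genes. These values rest on 22 to 58 cells per library and on few UMIs, down to 2 for Hmgcs1 and 1 for Cyp51. Srebf1 was higher in replicate 2 in D1 MSNs, at no more than 4.55 CPM, against 0.228%. In PFC droplets of low UMI number Fdps was at 51.6, 130, 48.8 and 143 CPM and Dhcr7 at 3.83, 17.3, 6.10 and 11.7 CPM, so Fdps and Dhcr7 differed in the same direction outside the annotated cells.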

How the data were processed

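The authors counted reads with Cell Ranger 3.0.2, with mm10 named as the build, per the labels' processing notes, and deposited for each library a matrix of UMI counts per gene and droplet, raw and not normalized. The deposited tables of annotated cells give other information than measurements, namely the library, cell type and subtype of each cell, named by the authors with Seurat 3.2.0 after removal of cells under 800 genes or over 10% mitochondrial UMIs. All annotated cells were found in the matrices and met both limits. No doublet removal was run here. The pair of libraries with most barcodes in common shared 24. Further tables of values per cell, in which genes are not named, were not used here.

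For each library, the UMIs of all cells of a type were added up and given as CPM of all UMIs of these cells, with Python 3.11.15, pandas 2.3.3 and numpy 2.4.6. A count of 0 allows up to 3 UMIs, for counting error only. Types with at least 10 cells in every library were tested with edgeR 4.0.16 in R 4.3.3 (quasi-likelihood F-test after TMM scaling, on genes kept by filterByExpr at a count minimum of 10, with p-values adjusted by Benjamini-Hochberg over all genes of a type). An SE is the log2 fold change over the root of the F statistic. The genotype by tissue test used an FDR under 0.05 alone. Pairs of cell types needed 40 UMIs over both sums, with 0.5 UMIs added to each. The scripts were tested on simulated counts. The p-values measure the spread between libraries.

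By the methods a replicate joins 1 WT and 1 Setd1a+/- library, so the same numbers were taken as pairs. Deviations from the genotype mean correlated between same-numbered libraries with a median of 0.37 over 8 PFC types (0.118 to 0.644) and 0.19 over 10 striatal types (0.0982 to 0.437), and 0.051 between tissues. The methods use no block, so it is an alternative.

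All 26 members are named. Library values were planned for the 5 largest folds of each pair, the 10 smallest FDRs between tissues, the 5 smallest p-values between genotypes in each tissue, and the SREBP and Insig genes. For some of these a fold, mean or range stands in their place. Other values given per library were chosen after they were seen. The members, the gene lists and the tests were chosen with earlier results of these data known. Alternatives were DESeq2 1.42.0, library size scaling, no low-count filter, the replicate block, leaving out each library, and, for pairs, other folds, 200 UMIs, thinned cells, subtracted free RNA and totals without mitochondrial and ribosomal protein genes. Promoter windows and gene positions are of GRCm38 (RefSeq and GENCODE), with windows for 22 of 26 members and none for Fdps, Fdft1, Sqle and Stard4.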

Additional observations from a re-analysis of the deposited data

How the results depend on the processing

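The number of members called lower in striatal astrocytes was 13, and 11 to 15 when 1 library was left out. Over all shared types 18 members were called, all lower in the striatum, against 22 under the replicate block (21 lower and 1 higher), 18 with DESeq2, 24 without the low-count filter (21 lower and 3 higher) and 12 to 21 with 1 library left out, the last being 19 lower and 2 higher. Over the counts that answer a comparison, 65 alternative values stayed within 1.5 times and 33 did not. None of the 18 members called between tissues changed sign under these alternatives. Of all 128 member results between tissues, 32 changed sign with 1 library left out and 6 under the other alternatives, and of 522 between genotypes, where 0 were called, 329 and 54 did. Between tissues 2837 genes were called, 6957 without the low-count filter and 1638 to 3989 with 1 library left out. Between genotypes, genes called in PFC types moved from 0 to 26 with the replicate block, 1 with DESeq2, 63 without the filter and 25 to 122 with 1 library left out. In excitatory subtypes they moved from 0 to 11, 28 and 7 to 306 in the same settings (DESeq2 gave 0), in striatal types from 4 to 79, 110 and 67 to 402 (DESeq2 gave 5), and over all cells from 0 to 3 with DESeq2 and 0 to 606 with 1 library left out. The genotype by tissue test went from 0 to 26 genes without the filter and 0 to 4 with 1 library left out. The replicate block changed no call of a member between genotypes. The count of members past 2-fold in every library over the 17 pairs was 36, 70 at 1.5-fold, 13 at 3-fold and 36 to 44 with 1 library left out. The cause of these shifts was not tested. Leaving 1 library out of 2 leaves 1 for its genotype, which is then assumed to vary like the others. Low members such as Lss, Tm7sf2, Lbr, Scap and Stard4 rest on few UMIs in most types. Each was too low to be tested between tissues in several types, so differences in them could be missed.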
